A study of Mus musculus with 4 samples.

Results

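NRF2, the protein of Nfe2l2, is the transcription factor through which cells answer oxidants and reactive chemicals, and 9 genes of that response were followed through a stepwise culture of primary mouse hepatocytes. The members were chosen by gene symbol, with earlier results of these data known. They were the factor Nfe2l2, its repressor Keap1, and 7 of the best known genes of the response, Nqo1, Hmox1, Gclc, Gclm, Srxn1, Slc7a11 and Txn1. All 9 were found among the 30138 entries of the deposited read count table. All 9 also passed the filter of at least 1 CPM (reads scaled by library size) in at least 1 library, as did 15222 genes in all.

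As background, the KEAP1 protein holds NRF2 in the cytoplasm and hands it to a ubiquitin ligase for breakdown. Oxidants and electrophiles modify cysteines of KEAP1, after which NRF2 accumulates, enters the nucleus, pairs with a small MAF protein and binds antioxidant response elements. NRF2 activity is set largely at the protein level, so the RNA level of Nfe2l2 alone does not report it. In liver the response is known for glutathione synthesis, the regeneration of oxidized thiols and the conjugation and export of reactive chemicals.

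RNA of each of 4 stages was sequenced as 1 library. Cells had first been grown with 10% fetal bovine serum. S0 was the culture in medium with knockout serum replacement, mercaptoethanol, B-27 and N-2 supplements and the growth factors bFGF and EGF, both at 20 ng/ml. S1 had then received the DNA methylation inhibitor 5-azacytidine (labelled 5-AZA, at a dose labelled 5 mM) for 48 h and the histone deacetylase inhibitor trichostatin A (TSA, 100 nM) for 24 h. S2 had then received insulin, transferrin and selenium (ITS) with retinoic acid (RA, at a dose labelled 2 mM) for 7 days. S3 had then received nicotinamide at 10 mM for 7 days, in medium without both growth factors. The labels name no strain, sex or number of animals, and both millimolar doses are printed as labelled. Mercaptoethanol, a reducing thiol, is listed among the base components of the medium, and selenium, which peroxidases and thioredoxin reductases need, was added with ITS.

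Reads in genes ranged from 22944047 in S2 to 27602967 in S0. CPM here are scaled with TMM factors, and a value in parentheses after a fold is its 95% Clopper-Pearson interval. That interval covers counting error only. With 1 library per stage no difference has a replicate check, no test was possible, and a difference between stages cannot be told apart from a difference between cultures. A gene was called higher or lower where its whole interval lay beyond 2-fold. The labelled cell type held in part. Of the 15 hepatocyte markers found, between 12 and 13 had a read at each stage, though several had very few. Cyp2e1 had only 1 to 2 reads, Apoc3 0 to 7, G6pc 0 to 6, and Pck1 2 in S0. Tat had 0 reads at all 4 stages and Pck1 had 0 reads in S1, S2 and S3. Summed levels in S0 to S3 were 3790, 4161, 12430 and 6514 CPM. That sum was carried by Apob and Alb, at 3151 and 234 CPM in S0 and 3690 and 7171 CPM in S2. Of the 10 that passed the filter, 5 were called higher and 2 lower in S1 over S0 (12.6% and 13.1% of all genes). In S2 over S1, 5 were called higher and 1 lower (6.71% and 10.1% of all genes). In S3 over S2, 0 were called higher and 6 lower (3.69% and 1.14% of all genes), with a median 3.00-fold lower. All 16 macrophage markers had reads at S0 and S1, and their summed level was 14369 CPM at S0, 3391 at S1, 754 at S2 and 753 at S3. In S1 over S0, 12 of the 16 were called lower and 2 higher, Marco and Cd5l. Summed proliferation markers stood at 1144, 107, 48.2 and 239 CPM. Summed fibroblast markers were at 7832, 2087, 1925 and 3613 CPM, a sum carried in S0 by Acta2 (3895 CPM) and Tagln (2114 CPM). In S3 over S0, 6 of 12 fibroblast markers were called higher and 4 lower, with a median 1.49-fold higher. In S3 over S2, 7 of these 12 were called higher, as were 5 of 6 proliferation markers, and 0 of either lower. Biliary markers summed to 1773, 1723, 823 and 889 CPM, and endothelial markers to 21.6 CPM or less. The biliary sum was carried in S0 by Spp1, at 1117 CPM there and 282 CPM in S3. In S3 over S0, 1 of 6 biliary markers was called higher and 2 lower, with a median 1.23-fold higher. The part of these cell type markers in the results was not tested, and in bulk RNA fewer cells of a type and less RNA per cell cannot be told apart.

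The members followed several courses. Nqo1, Srxn1 and Gclc were called higher at the inhibitor step, Slc7a11, Gclm and again Gclc at the retinoic acid step, and none at the nicotinamide step. Nfe2l2 itself was called lower at the inhibitor step. Together the 9 genes took 0.107% of reads at S0 (0.105 to 0.108), 0.295% at S1 (0.293 to 0.297), 0.451% at S2 (0.449 to 0.454) and 0.400% at S3 (0.397 to 0.402).

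**Figure D1:**
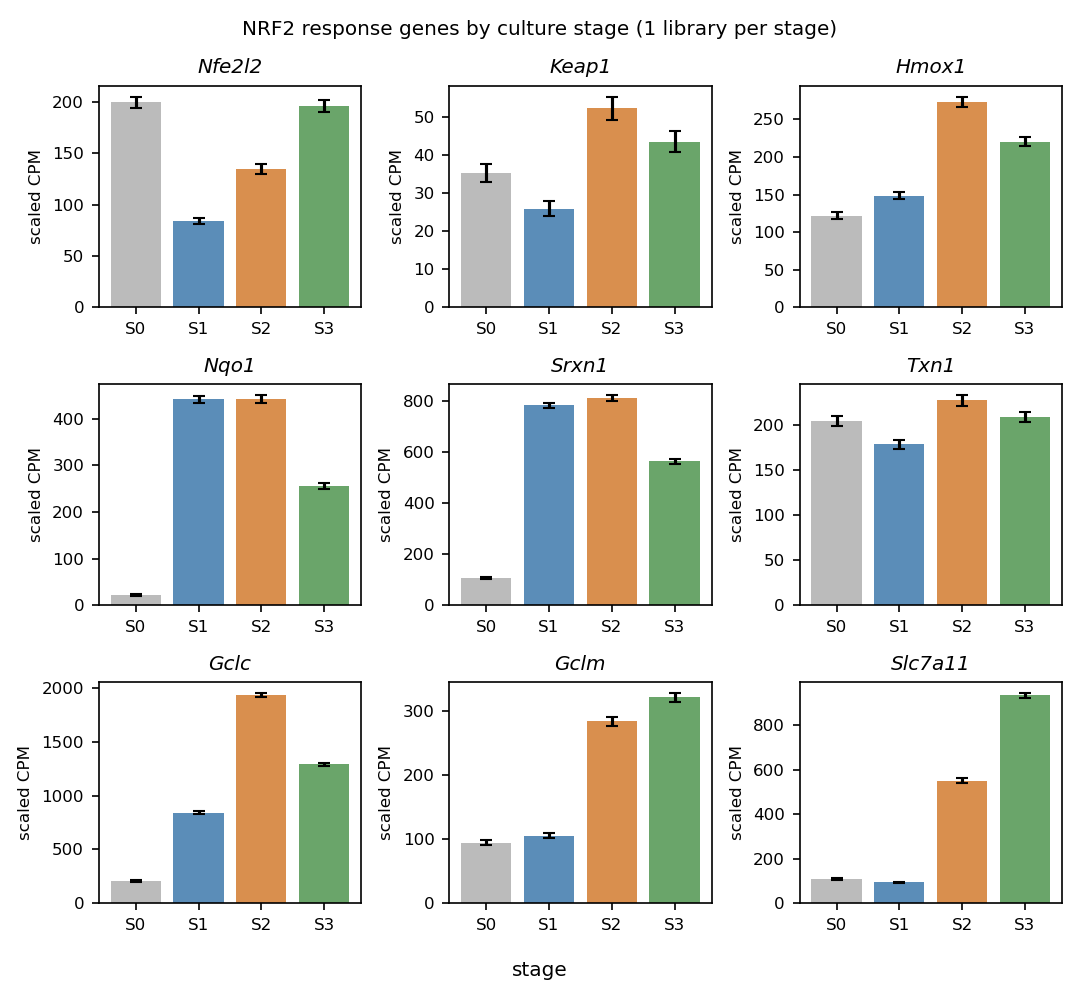
Level of each of the 9 genes in TMM-scaled CPM (vertical axes start at 0 and differ between panels) in the single library of stages S0, S1, S2 and S3. Bars are levels and whiskers 95% Poisson counting intervals. Nqo1 and Srxn1 are high from S1 on, Gclm and Slc7a11 from S2 on, and Nfe2l2 is lowest in S1.

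Promoter windows were at hand for 7 of the 9 members in the RefSeq table (build GRCm38.p6, from 250 bases before to 50 after each start), all but Hmox1 and Gclc. They were searched on both strands for the core of the antioxidant response element, TGACNNNGC, and for the AP-1 site, TGANTCA; the motifs can overlap. The element was found in 3 of 7 members, Nfe2l2, Gclm and Srxn1, in 18 of 65 other pathway genes (27.7%) and in 3781 of all 27025 genes with a window. The AP-1 site was found in 1 of 7 members, in 8 of 65 pathway genes (12.3%) and in 8.97% of all genes. Srxn1 held it at 2 places, which 0.460% of all 32851 windows did. The stretches below show these matches in capitals, and that of Nqo1, the member with the largest difference at the inhibitor step, is shown for comparison. The only Srxn1 match to TGACNNNGC lies after the start and is not shown. Only these exact letters were searched, so wider forms of the element would not be counted.
Srxn1, chr2:152105404-152105523, plus strand, the 120 bases before the start: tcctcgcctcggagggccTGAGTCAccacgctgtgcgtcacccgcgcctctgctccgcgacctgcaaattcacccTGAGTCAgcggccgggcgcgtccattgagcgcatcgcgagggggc
Gclm, chr3:122245407-122245466, plus strand, 150 to 91 bases before the start: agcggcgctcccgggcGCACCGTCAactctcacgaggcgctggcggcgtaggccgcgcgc
Nfe2l2, chr2:75704854-75704913, minus strand, 250 to 191 bases before the start: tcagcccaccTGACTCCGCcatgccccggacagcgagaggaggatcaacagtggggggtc
Nqo1, chr8:107403206-107403325, minus strand, the 120 bases before the start: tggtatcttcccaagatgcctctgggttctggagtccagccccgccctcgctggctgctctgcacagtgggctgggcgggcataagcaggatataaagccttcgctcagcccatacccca

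The 4 stretches differ in what they hold. That of Srxn1 has the AP-1 letters at both places, Gclm carries the element on the reverse strand and Nfe2l2 on the forward strand, and that of Nqo1 has neither motif. The whole windows of Nqo1, Slc7a11, Keap1 and Txn1 held no match, which says only that these letters are not within them.

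Nfe2l2 (ENSMUSG00000015839, chromosome 2) stood at 200 CPM at S0, 84.1 at S1, 135 at S2 and 197 at S3. S0 and S3 were the high libraries and S1 the low one. The level in S1 was 2.38-fold lower than in S0 (2.27 to 2.50), a called difference. From that low point it was 1.61-fold higher in S2 than in S1 (1.52 to 1.70) and 1.45-fold higher in S3 than in S2 (1.39 to 1.52), neither of them called. S3 and S0 did not differ beyond counting error (1.02-fold lower in S3, 0.978 to 1.06), and their order turned round with library totals in place of TMM.

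Keap1 (ENSMUSG00000003308, chromosome 9), the repressor, was the lowest member per length at every stage, at 2.84 to 5.05 RPKM (reads scaled by gene length and library size). Its levels were 35.3, 26.0, 52.4 and 43.6 CPM in S0 to S3. None of its differences between consecutive stages was called. S2 over S1 lay at 2.02-fold higher (1.84 to 2.21), just inside the rule, while Keap1 had a log2 ratio of -0.44 for S1 over S0 (-0.58 to -0.30) and was 1.20-fold lower in S3 than in S2 (1.10 to 1.31). Within each library, where library scaling plays no part, the RPKM ratio of Keap1 to Nfe2l2 was 0.121 at S0, 0.211 at S1, 0.265 at S2 and 0.152 at S3. The ratio was therefore highest in S2 and lowest in S0, and in every library Nfe2l2 stood above Keap1 per length.

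Nqo1 (ENSMUSG00000003849, chromosome 8), the quinone reductase that spares cells from redox cycling of quinones, had the widest range of the members. It had 589 reads at S0, 12834 at S1, 9734 at S2 and 5981 at S3, or 22.1, 442, 443 and 255 CPM. S1 was 20.0-fold above S0 (18.5 to 21.8), a ratio that 97.7% of the 15222 genes lay below. S2 and S1 did not differ beyond counting error (1.00-fold, 0.977 to 1.03), and their order turned round under each other scaling tried. S3 was 1.74-fold lower than S2 (1.68 to 1.79, not called) and still 11.6-fold above S0 (10.6 to 12.6).

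Hmox1 (ENSMUSG00000005413, chromosome 8), the inducible haem oxygenase, had a much narrower range. Its levels were 122, 149, 273 and 220 CPM in S0 to S3, lowest in S0 and highest in S2. No consecutive difference was called: S1 was 1.22-fold above S0 (1.16 to 1.27), S2 1.84-fold above S1 (1.77 to 1.92) and S3 1.24-fold below S2 (1.20 to 1.29). S2 over S0 was called, at 2.24-fold higher (2.15 to 2.34). Macrophages also express Hmox1. Summed macrophage markers stood at 14369 CPM in S0, of which Lyz2 was 8936, and at 3391, 754 and 753 CPM in S1 to S3. The part of macrophages in the Hmox1 levels was not tested. The RPKM ratio of Nqo1 to Hmox1 within a library was 0.187 at S0, 3.08 at S1, 1.68 at S2 and 1.20 at S3, so the order of these genes per length at S0 was the opposite of that in the later stages.

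Gclc and Gclm encode the catalytic and the modifier subunit of glutamate-cysteine ligase, the rate-limiting enzyme of glutathione synthesis. Gclc (ENSMUSG00000032350, chromosome 9) had 5536 reads at S0, 24458 at S1, 42528 at S2 and 30240 at S3, or 207, 842, 1937 and 1291 CPM. It was called higher at both of the first steps, 4.06-fold in S1 over S0 (3.95 to 4.19) and 2.30-fold in S2 over S1 (2.26 to 2.34). Its call at the second of these steps was lost with library totals in place of TMM, where the log2 ratio was 1.01, against 1.20 with TMM. S3 lay below S2, with a log2 ratio of -0.59 (-0.61 to -0.56), not called. Per length Gclc was the highest member in S2 and S3, at 197 and 134 RPKM.

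Gclm (ENSMUSG00000028124, chromosome 3) had a later course, with 94.6, 106, 284 and 321 CPM in S0 to S3. S1 was 1.12-fold above S0 (1.06 to 1.18), not called, and S2 was 2.69-fold above S1 (2.57 to 2.81), called. S3 was the highest library, 1.13-fold above S2 (1.09 to 1.17). In the RefSeq table Gclm overlaps a long non-coding gene and a pseudogene, so reads shared with them are uncertain. The subunits thus differed in when they were high: the RPKM ratio of Gclc to Gclm within a library was 3.58 at S0 (3.41 to 3.75), 13.0 at S1 (12.5 to 13.5), 11.1 at S2 (10.9 to 11.5) and 6.56 at S3 (6.40 to 6.73). Between S1 and S0 this ratio was 3.64-fold higher in S1 (3.43 to 3.87).

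Slc7a11 (ENSMUSG00000027737, chromosome 3) encodes the cystine carrier that supplies cysteine for glutathione. It had 2919 reads at S0, 2746 at S1, 12116 at S2 and 21886 at S3, or 109, 94.6, 552 and 934 CPM. S0 and S1 were low and close together, with S1 1.16-fold lower (1.10 to 1.22). S2 was 5.83-fold above S1 (5.60 to 6.08), the largest called difference of a member at that step, and 98.7% of genes lay below it. S3 was 1.69-fold above S2 (1.66 to 1.73), not called, and 8.55-fold above S0 (8.23 to 8.89). With Gclm and Nfe2l2 it was among the 3 members whose level in S3 exceeded that in S2.

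The carrier works as a pair with the heavy chain of Slc3a2, whose levels were 196, 93.4, 172 and 174 CPM in S0 to S3. Slc3a2 was called lower in S1 than in S0, a call lost with library totals (1.87-fold, 1.78 to 1.96), and was not called at either later step. Per length, the ratio of Slc7a11 to Slc3a2 within a library was 0.170 at S0 (0.162 to 0.178), 0.309 at S1 (0.293 to 0.326), 0.980 at S2 (0.945 to 1.02) and 1.64 at S3 (1.59 to 1.70). Slc7a11 is also known as a target of ATF4, the factor of the amino acid response. Of 14 genes on a list of ATF4 and its targets, 2 were called higher in S1 than in S0, Ddit3 (3.25-fold, 2.93 to 3.60) and Cth (3.58-fold, 2.89 to 4.47), and 2 lower, Slc3a2 and Shmt2 (2.96-fold, 2.75 to 3.19). These are 14.3% each way, where 12.6% of all genes were called higher and 13.1% lower. With library totals the Slc3a2 call was lost and Vldlr was called higher (2.44-fold, 2.25 to 2.65), so the even split depended on the scaling. In S2 over S1, 0 of the 14 were called higher and 2 lower (14.3%), Atf3 (2.24-fold, 2.01 to 2.51) and Cth (2.62-fold, 2.14 to 3.24), where 6.71% of all genes were called higher and 10.1% lower. Atf4 itself was at 173 CPM in S2 and 126 CPM in S1. At the next step 1 of the 14 was called lower (7.14%), Ddit3 (3.17-fold, 2.91 to 3.45), and 0 higher. Of all genes, 1.14% were called lower there and 3.69% higher. Over the whole protocol 1 was called lower, Psat1 (2.32-fold, 2.18 to 2.48), and 1 higher, Ddit4 (2.98-fold, 2.58 to 3.47). These are 7.14% each way, where 10.5% of all genes were called lower and 9.2% higher.

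**Figure D2:**
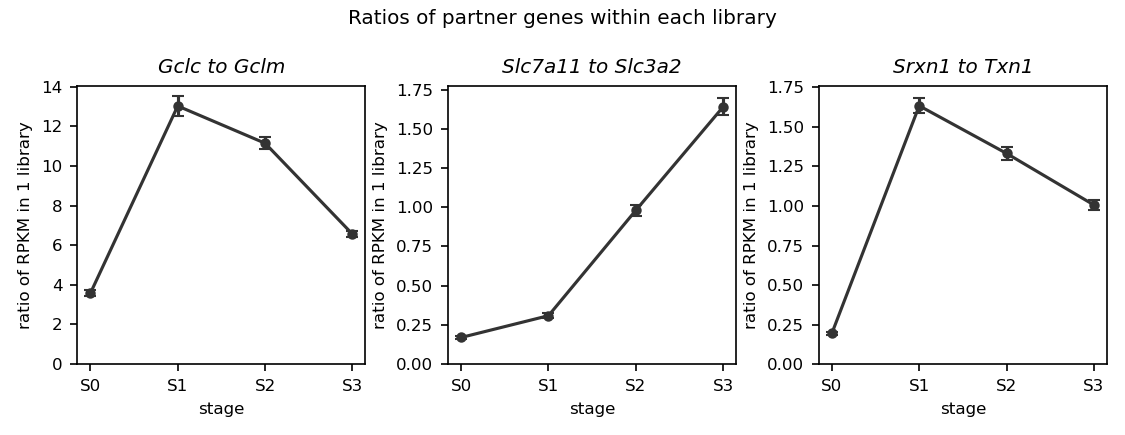
Ratio of deposited RPKM values of partner genes within each library (vertical axes start at 0) at stages S0 to S3, for Gclc to Gclm, Slc7a11 to Slc3a2 and Srxn1 to Txn1. Points are ratios and whiskers 95% counting intervals. The Gclc to Gclm and Srxn1 to Txn1 ratios peak in S1, at 13.0 and 1.63, while Slc7a11 to Slc3a2 is highest in S3, at 1.64.

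Srxn1 (ENSMUSG00000032802, chromosome 2) encodes sulfiredoxin, which returns overoxidized peroxiredoxins to use. It had 2848 reads at S0, 22730 at S1, 17844 at S2 and 13192 at S3, or 107, 783, 813 and 563 CPM. S0 was low and the other libraries high. The Srxn1 promoter stretch shown has paired AP-1 letters, and a link of these letters to the levels was not tested. S1 was 7.34-fold above S0 (7.06 to 7.64), S2 stood 1.04-fold above S1 (1.02 to 1.06) and S3 1.44-fold below S2 (1.41 to 1.48), of which only the first was called. S2 lay below S1 with library totals and with RPKM. S3 remained 5.28-fold above S0 (5.07 to 5.50).

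Txn1 (ENSMUSG00000028367, chromosome 4), thioredoxin, varied least of the members. Its levels were 204, 179, 228 and 209 CPM in S0 to S3, and the highest was 1.27-fold above the lowest. It was the highest member per length in S0, at 68.2 RPKM, and the fourth in S1 and S2, with 67.3 and 75.6 RPKM. S3 and S0 did not differ beyond counting error (1.02-fold higher in S3, 0.984 to 1.06), with an order that depended on the scaling. The RPKM ratio of Srxn1 to Txn1 was 0.195 at S0, 1.63 at S1, 1.33 at S2 and 1.01 at S3.

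The enzyme that reduces thioredoxin behaved otherwise than thioredoxin. Txnrd1 stood at 399, 1287, 2084 and 1674 CPM in S0 to S3 and was called higher in S1 than in S0. Txnrd2, the mitochondrial form, was called lower there (5.98-fold, 4.08 to 9.01), at 1.10 CPM in S1 against 6.59 CPM in S0. The RPKM ratio of Txnrd1 to Txn1 was 0.600 at S0, 2.21 at S1, 2.81 at S2 and 2.46 at S3. Prdx1, a peroxiredoxin that SRXN1 repairs, was at 809, 2956, 1720 and 1531 CPM. It was called higher in S1 than in S0 and not called at either later step. Prdx2, Prdx3 and Prdx4 were not called at any step. The RPKM ratio of Srxn1 to Prdx1 was 0.108, 0.216, 0.385 and 0.300 in S0 to S3. Txnip, the inhibitor of thioredoxin, was at 300, 288, 82.6 and 54.5 CPM and was called lower in S2 than in S1 (3.48-fold, 3.31 to 3.67).

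Set against all genes, the inhibitor step (S1 over S0) had 3 of 9 members called higher and 1 lower, where 12.6% of all tested genes were called higher and 13.1% lower. The median member was 1.12-fold higher, and the median of all genes 1.03-fold lower. For S2 over S1, 3 members were called higher and 0 lower, against 6.71% and 10.1% of all genes. The median member was 1.84-fold higher and the median gene 1.01-fold higher. All 9 point ratios lay above no change at that step, but those of Nqo1 and Srxn1 turned to lower with library totals. Over all genes 1021 were called higher and 1542 lower, against 711 and 1911 with library totals. For S3 over S2, 0 members were called in either direction, and 3.69% of genes were called higher and 1.14% lower. The median member was 1.20-fold lower, with 3 of 9 lying higher in S3.

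Over the whole protocol (S3 over S0), 5 of 9 members were called higher and 0 lower, with 9.2% of all genes called higher and 10.5% lower. The 5 were Nqo1, Slc7a11, Gclc (6.23-fold, 6.05 to 6.41), Srxn1 and Gclm (3.39-fold, 3.24 to 3.55). The other 4 were Hmox1 at 1.80-fold higher (1.73 to 1.89), Keap1 at 1.23-fold higher (1.13 to 1.35), and Txn1 and Nfe2l2, whose intervals held no difference. The median member was 3.39-fold higher and the median gene 1.04-fold higher. For S2 over S0, 6 members were called higher, the same 5 and Hmox1, and 0 lower, with 9.05% of all genes called higher and 11.5% lower. For S3 over S1, 3 members were called higher, Slc7a11 (9.88-fold, 9.49 to 10.3), Gclm (3.04-fold, 2.92 to 3.17) and Nfe2l2 (2.34-fold, 2.22 to 2.45), and 0 lower, with 9.06% of all genes called higher and 9.64% lower. These comparisons share libraries, so they are not independent of the steps.

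**Figure D3:**
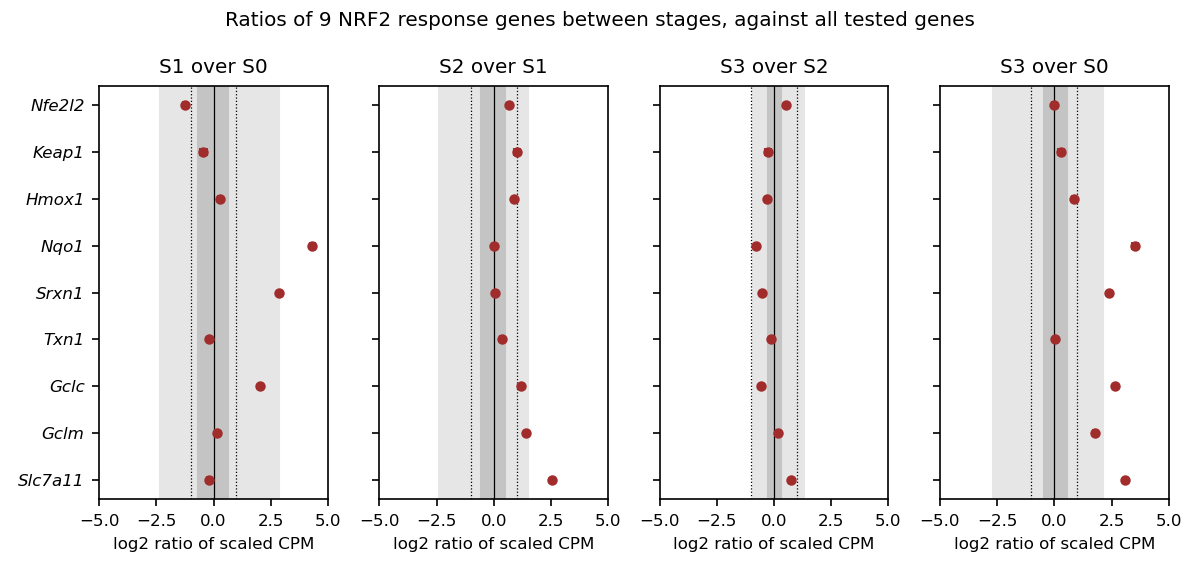
Log2 ratio of scaled CPM of each member (points, with 95% counting intervals mostly smaller than the points) in 4 comparisons. Dark and light bands hold the central 50% and 90% of all 15222 tested genes, with levels under 3 reads set to that floor, and dotted lines mark 2-fold. In S1 over S0 Nqo1 lies beyond the light band and Srxn1 (2.88) narrowly beyond its edge (2.85), as does Slc7a11 in S2 over S1 by more, and no member lies beyond 2-fold in S3 over S2.

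The per-length order of the members changed between stages. In S0 it ran Txn1, Nfe2l2, Hmox1, Gclc, Srxn1, Gclm, Nqo1, Slc7a11 and Keap1. In S1 Nqo1 (112 RPKM), Srxn1 (110) and Gclc (97.1) came before Txn1. In S2 Gclc led at 197 RPKM, followed by Srxn1 at 101 and Nqo1 at 99.5. In S3 the order was Gclc, Srxn1, Txn1, Nqo1, Hmox1, Slc7a11, Nfe2l2, Gclm and Keap1. Nqo1 thus stood above 68.0% of tested genes in S0 and above 99.1% in S1.

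The other genes of the pathway were read from a list of 75, of which 73 were tested, arranged by role. At the inhibitor step 14 of the 73 were called higher (19.2%, against 12.6% of all genes) and 8 lower (11.0%, against 13.1%). At the retinoic acid step 20 were higher (27.4%, against 6.71%) and 2 lower (2.74%, against 10.1%). At the nicotinamide step 2 were higher, Sod3 and Gpx3 (2.74%, against 3.69%), and 0 lower, against 1.14%. Over the whole protocol 24 were higher (32.9%, against 9.2%) and 2 lower, Txnip and Blvra (2.74%, against 10.5%). The shares lower at the inhibitor step and higher at the nicotinamide step were thus near or under those of all genes. The median of the 73 was 1.24-fold higher in S1 over S0, 1.54-fold higher in S2 over S1 and 1.05-fold lower in S3 over S2. With library totals 16 were higher at the retinoic acid step, without Sqstm1, Taldo1, Hpx and Gsta4, and 3 lower, with Fth1 gained. At the inhibitor step 6 were then lower, without Slc3a2 and Trim21. The calls of Sqstm1 and Gsta4 at the retinoic acid step were lost under each of the 3 other scalings of the counts. A gene that passed the filter only through a high later stage had to differ, so these counts are a description.

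Among 13 tested regulators and partners, Mafg, a small MAF partner of NRF2, was called lower in S1 than in S0 (2.76-fold, 2.58 to 2.96) and higher in S2 than in S1. Its levels of 106, 38.5, 108 and 103 CPM in S0 to S3 followed the same low point in S1 as Nfe2l2. Trim21, a ubiquitin ligase, was the other called lower in S1, a call lost with library totals. Nfe2l3, a relative of Nfe2l2, was the only one called higher there, at 25.1 CPM in S1 against 5.95 CPM in S0. Sqstm1, whose protein p62 competes for KEAP1, was called higher in S2 than in S1, at 1559 CPM against 750 CPM (2.08-fold, 2.04 to 2.11). That call was lost under each of the 3 other scalings, and Sqstm1 was not called at the next step. Bach1, a repressor at the same elements, stood at 106, 63.7, 80.2 and 82.3 CPM with no call.

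Of 11 tested glutathione genes, Gsr, which regenerates reduced glutathione, was called higher in S2 than in S1, at 630 CPM against 213 CPM. Mgst1, a membrane glutathione transferase, was called higher in the same comparison, at 263 CPM against 71.7 CPM. Glrx, glutaredoxin, was called lower, at 13.8 CPM in S2 against 54.3 CPM in S1 (3.92-fold, 3.47 to 4.45). Gss, which adds the last amino acid of glutathione, was not called at any single step and was called higher over the whole protocol, at 106 CPM in S3 against 46.3 CPM in S0. Gpx3, a secreted peroxidase, was called higher in S3 than in S2 (2.63-fold, 2.24 to 3.11). At the inhibitor step the calls were Ggt1 higher and Slc3a2 and Mgst2 lower.

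Of 6 genes that supply NADPH, 0 were called at the inhibitor step, where 12.6% of all genes were higher and 13.1% lower. At the retinoic acid step 2 were called higher (33.3%, against 6.71% of all genes), Taldo1 and Idh1. Taldo1 stood at 574 CPM in S2 against 265 CPM in S1, and Idh1 at 408 CPM against 137 CPM. The Taldo1 call was lost with library totals (1.90-fold, 1.85 to 1.96). G6pdx, the first enzyme of the pentose phosphate pathway, stood at 138, 211, 224 and 180 CPM with no call. Of 8 haem and iron genes, Blvrb was called higher and Blvra lower in S1 than in S0; both encode biliverdin reductases, which act after haem oxygenase. Hpx, the plasma haem carrier made by hepatocytes, was called higher in S2 than in S1, where the summed hepatocyte markers were also higher. The Hpx call was lost with library totals and with scaling without Malat1 and mitochondrial genes. Of the ferritin genes, Ftl1 was not called at any step. Fth1 was 1.91-fold lower in S2 than in S1 (1.87 to 1.94), not called with TMM, but called lower with library totals (2.17-fold, 2.13 to 2.21). Cat, catalase, was called higher in S2, at 602 CPM against 252 CPM in S1, while Sod1 and Sod2 had no call.

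Detoxification and export genes, the largest role group with 20 tested, held the most calls at both of the first steps and none at the nicotinamide step. At the inhibitor step 9 were called higher (45%, against 12.6% of all genes) and 2 lower (10%, against 13.1%). At the retinoic acid step 12 were higher (60%, against 6.71%) and 0 lower, against 10.1%. Over the whole protocol 14 were higher (70%, against 9.2%) and 0 lower, against 10.5%. The glutathione transferase gene Gstm1 stood at 42.6, 315, 1308 and 976 CPM in S0 to S3, high in S2 and S3. Gstp1 stood at 83.7, 748, 504 and 567 CPM, so its highest library was S1. Gsta2 was called higher at both steps, 16.2-fold in S1 over S0 (11.9 to 22.8) and 5.16-fold in S2 over S1 (4.76 to 5.61). Gsta1, Gsta3, Gsta4 and Gstm3 were likewise called higher at both steps with TMM, Gsta4 narrowly so in S2 over S1 (2.07-fold, 2.03 to 2.12). These transferases are close paralogs whose reads the authors' counting could have split or shared, so the value of each is uncertain.

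Outside the transferases, Abcc2, the canalicular exporter of glutathione conjugates, was 16.2-fold higher in S2 than in S1 (15.2 to 17.2). Aox1, an aldehyde oxidase, was 5.90-fold higher (5.30 to 6.58) and Ephx1, the microsomal epoxide hydrolase, 4.01-fold (3.89 to 4.13) in the same comparison. Aldh3a1 had 20 reads in S1 against 0 in S0. Set against a floor of 3 reads in S0 it was 6.13-fold higher, and its counting interval reached down to 4.54-fold. Abcc3, a basolateral exporter, was 3.07-fold lower in S1 than in S0 (2.94 to 3.20) and was called higher in S2 than in S1. Several of these genes are also known as hepatocyte genes. The summed hepatocyte markers were 12430 CPM in S2 and 4161 CPM in S1, and their part in these calls was not tested.

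**Figure D4:**
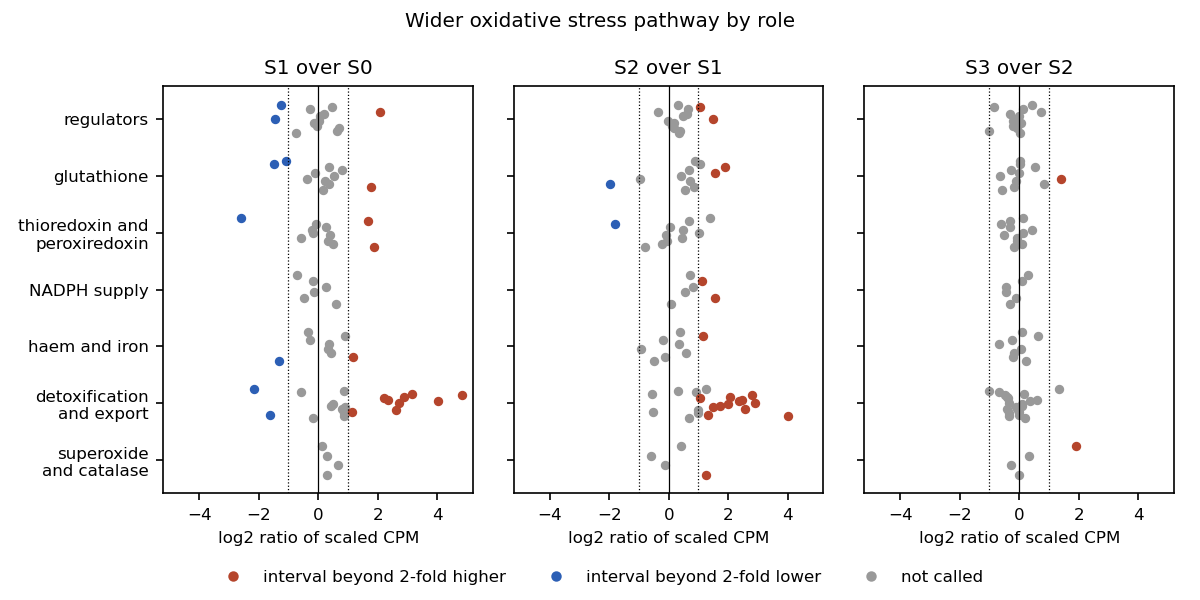
Log2 ratio of scaled CPM of the 73 tested pathway genes (1 point a gene, rows by role) at the 3 consecutive steps, coloured by call. Dotted lines mark 2-fold, and Aldh3a1, with 0 reads in S0, is drawn at its ratio to a floor of 3 reads in S1 over S0. Detoxification and export genes hold 9 and 12 of the higher calls at the first and second steps, and the third step has 2 calls in all.

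Other genes with the most similar course to a member were sought among 9755 genes with at least 10 CPM on average, by the root mean square difference of centred log2 levels over the 4 libraries. Nearest to Gclc was Thrb, a thyroid hormone receptor (0.0630), followed by Gsta4 (0.108) and Sema3d (0.143), where the median gene lay at 1.23. Nearest to Srxn1 was Mmp10, a matrix metalloprotease (0.0481), and nearest to Slc7a11 were Ptprv (0.161) and Upk3b (0.188). Nqo1 had no gene as near: Fetub, a plasma protein gene, lay at 0.289 and Olr1, a scavenger receptor, at 0.426. With 4 points a likeness of this kind is a description of these libraries.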

How the data were processed

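For 4 total RNA libraries, 1 per stage, the authors deposited whole-number read counts of genes and RPKM values of the same genes, as named per the file headers. Trizol RNA went into a stranded total RNA kit, per the labels' protocols. Per the submitters' processing notes, the build was mm9 and bcl2fastq was used; the aligner, counter, annotation and strand setting were not given in the sources used here, so overlapping genes and close paralogs are uncertain.

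Counts were scaled to CPM with TMM factors (0.968, 1.09, 0.957 and 0.991 for S0 to S3) from edgeR 4.0.16 in R 4.3.3; the filter asked for 1 CPM or more in 1 library or more. Ratios had exact 95% Clopper-Pearson intervals, called when wholly beyond 2-fold (Python 3.11.15, scipy 1.17.1). A gene at 0 reads was set against a floor of 3 reads, 0.103 to 0.137 CPM by library. Intervals and floors cover counting error only, as reads without molecular identifiers are not independent molecules. RPKM served for levels between genes and ratios within a library, whose intervals come from the counts. The interval code was tested on simulated data.

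Of the pathway and ATF4 lists, the text names per comparison up to 8 higher and 4 lower called genes, ranked by how far the interval stays from no change; other pathway genes were named for their role or call after their values were seen. The members and lists were chosen with earlier results of these data known. Of the lists, Dpp3 was not analysed here, and Gpx2 did not pass the filter. Alternatives were library totals, DESeq2 1.42.0 size factors, no filter, a filter of 5 CPM, point ratios, RPKM ratios, and scaling without Malat1 and mitochondrial genes.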

Additional observations from a re-analysis of the deposited data

How the results depend on the processing

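With 7 alternatives for each of 4 comparisons, the 9 members gave 252 ratios. None of the called ratios changed sign, 9 uncalled ones did (Nqo1 and Srxn1 in S2 over S1, Nfe2l2 and Txn1 in S3 over S0), and the largest shift was 1.14-fold. Of the calls 2 changed, both in S2 over S1: Gclc was lost with library totals (log2 1.01) and Keap1 was gained with the point ratio alone (log2 1.01). With library totals the median log2 ratio over all genes shifted by 0.18 in S1 over S0 and by -0.19 in S2 over S1. The members' counts stayed within 1.5 times of those reported under each alternative run.

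Counts over all genes or the pathway moved further. Point ratios in place of intervals gave 1695 genes higher and 2435 lower in S2 over S1, 1305 and 738 in S3 over S2, where 2 pathway genes were then lower, and 2303 higher in S3 over S0. RPKM ratios, also without an interval, gave 3144 higher in S1 over S0, 2846 lower in S2 over S1 with 4 pathway genes lower, 1335 higher and 714 lower in S3 over S2, and 2356 higher in S3 over S0. The filter of 5 CPM tested fewer genes and gave 1195 higher in S1 over S0, 975 lower in S2 over S1 and 1 pathway gene higher in S3 over S2. No paired analysis was possible because each stage has 1 library. Leaving out a library was not run for the same reason. Member counts of 589 to 42528 reads leave counting error small, while the spread between cultures is unknown.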
